A study of Mus musculus with 20 samples.

Results

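In both neurons and non-neurons of the mouse hypothalamus, 1336 genomic intervals fell to 0.5 or less of their birth value by weaning age in an assay that reads DNA methylation. They were chosen from a count table of 50782 intervals. Each library's reads were divided by its median over the 15147 intervals with at least 20 reads in every library, and the quotient is called the relative level here. Of the 27259 intervals with at least 10 reads in at least 5 libraries, 1336 (4.9%) had a P21 group mean of 0.5 or less of the P0 group mean in each cell type. The age change therefore chose these intervals, and its values are given as a description with no test. The filter could be passed through the P0 libraries alone, which was so for the 94 intervals with no P21 library at 10 reads. At least 5 P21 libraries had 10 reads or more at 923 intervals.

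The libraries came from hypothalami of male C57BL/6 mice, an inbred strain with no engineered allele or treatment named in the labels. Nuclei were sorted by staining for NeuN, a protein of neuronal nuclei, which gave 4 groups of 5 libraries: P21 neurons, P0 neurons, P21 non-neurons and P0 non-neurons, where P0 is the day of birth and P21 is postnatal day 21. Each library pooled 2 hypothalami, and the non-neuronal gate holds every cell type without NeuN. Total reads ran from 5663740 to 9998110 per library. Deviations of neuronal and non-neuronal P0 libraries from their group means correlated at r = 0.02 to 0.22 among replicates 1 to 3 and among 4 and 5. Between these 2 blocks r was -0.23 to -0.06 (correlations across intervals). The blocks were read from these correlations. Deviations from a group mean sum to 0, so positive values within blocks bring negative ones between them. The sorted identities could not be checked against marker genes, because the table gives positions on the mm9 build without gene names and an annotation of that build was not used here. In such mixed nuclei, a change in the share of a cell type and a change of methylation within cells cannot be told apart.

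Methylation of cytosines in CG pairs is set up by the enzymes Dnmt3a and Dnmt3b and copied at DNA replication by Dnmt1. It can be lost when cells divide without copying it, or removed after oxidation by Tet enzymes, a route open to cells that no longer divide, such as neurons. The assay, methylation-specific amplification, destroys unmethylated CCCGGG sites with the enzyme SmaI and then opens methylated ones with XmaI, and PCR from the XmaI ends copies the stretch between neighbouring sites. Fewer reads in an interval thus stand for less methylation at its 2 end sites, on a relative scale that PCR and interval length also affect. Values are given as CPM, counts put on a common scale with TMM-adjusted library sizes, with the SD over 5 libraries. TMM scaling put the P21 to P0 comparison 0.12 higher on the log2 scale in neurons, and 0.04 higher in non-neurons, than the median scaling that chose the intervals.

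The median P21 to P0 ratio was 0.337 in neurons (quartiles 0.239 and 0.417) and 0.380 in non-neurons (quartiles 0.284 and 0.441). Over all 27259 intervals the medians were 0.962 in neurons and 1.00 in non-neurons. With TMM scaling the median log2 change within the set was -1.429 in neurons and -1.345 in non-neurons. The median difference between these changes was -0.04 in the set and -0.05 over all tested intervals. The ratio was lower in neurons than in non-neurons at 832 intervals of the set (62.3%) and at 61.9% of all kept intervals. Both ratios were 0.25 or less at 141 intervals, 0.2 or less at 74 and 0.1 or less at 11. At the other end, 424 intervals (31.7%) had a larger ratio above 0.45, and another 573 just missed the threshold with a larger ratio of 0.5 to 0.55. With library totals alone as the scaling, 641 of the 1336 met the rule and no others did.

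Most of the 1336 intervals carried few reads already at birth. Their median was 1.80 CPM in P21 neurons and 5.57 in P0 neurons, and 2.18 CPM in P21 non-neurons and 5.87 in P0 non-neurons. Over all kept intervals the P0 medians were 7.82 CPM in neurons and 7.76 in non-neurons. A small strongly covered part of the set held much of its reads: the 50 best covered intervals held 49.4% of them and the top 100 held 67.6%. The matching share over all kept intervals is not given, so this is not read as a trait of the set. In each library the 1336 intervals of the set together took 1.80% to 2.00% of all reads in P21 neurons and 3.75% to 4.05% in P0 neurons. In non-neurons they took 1.66% to 1.84% at P21 and 3.64% to 3.83% at P0. Neither range at P21 touched the range at P0, a separation that follows from the choice of the intervals. All 5 P21 values lay below all 5 P0 values at 946 intervals in neurons (18.2% of all kept intervals did so), at 967 in non-neurons (17.6%) and at 769 in both (11.4%). The edgeR fit described with the cell type comparison called 1271 of 1310 tested intervals lower at P21 in neurons (26.3% of all tested intervals) and 1282 in non-neurons (25.8%), and 1127 and 1223 by at least 2-fold (8.04% and 7.81%); the choice used these contrasts, so nothing is read from the counts. At 25 intervals the mean was under 3 reads per library in both P21 groups, and 2 intervals had no read in any library of P21 neurons.

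**Figure D1:**
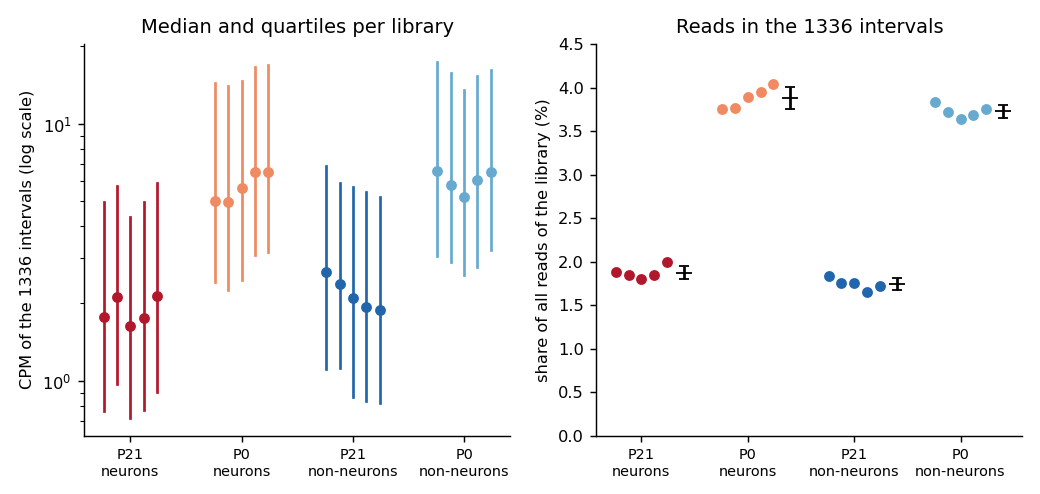
Left: CPM of the 1336 intervals in each of the 20 libraries (log axis; points are medians, lines span the quartiles). Right: share of each library's reads in these intervals (points are libraries, black marks are means with SD, n = 5); P21 neurons and P21 non-neurons lie at 1.66% to 2.00%, below the P0 libraries at 3.64% to 4.05%.

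In neurons 2848 intervals (10.4% of those kept) had a ratio of 0.5 or less and in non-neurons 2373 (8.71%). The shared 1336 made up 46.9% of the neuronal and 56.3% of the non-neuronal ones. The 2 age comparisons share no library. The 1512 intervals below 0.5 in neurons but not in non-neurons had a median length of 1052 bp and a median of 5.55 CPM over the P0 groups. They were lower at P21 in non-neurons too, with medians of 4.01 CPM in P21 non-neurons and 5.76 CPM in P0 non-neurons, without passing the limit. The 1037 with the loss in non-neurons but not in neurons had 980 bp and 7.88 CPM, with medians of 7.84 CPM in P21 neurons and 8.0 CPM in P0 neurons. The shared intervals had 1014 bp and 5.71 CPM.

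**Figure D2:**
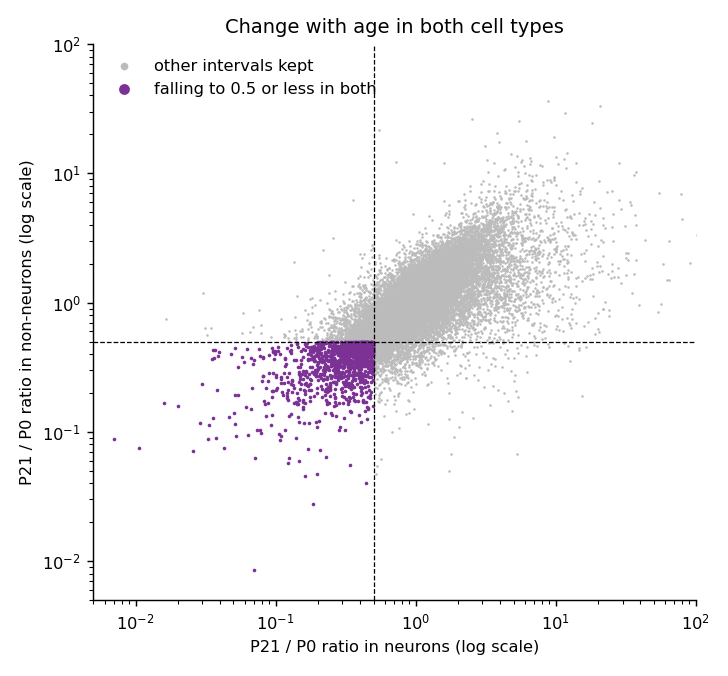
P21 to P0 ratio of the relative level in neurons (x axis) and in non-neurons (y axis), both on log axes, for the kept intervals; dashed lines mark 0.5. The 1336 chosen intervals, in purple, fill the lower left corner; 15 intervals, 2 of them chosen ones, have a ratio of 0 or beyond the axes and are not drawn.

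Among intervals with a P0 level above the median of the set, the deepest joint loss was at chr15:102454884-102455455, 571 bp on chromosome 15. It had 0, 0.176, 0.205, 0 and 0.226 CPM in the 5 libraries of P21 neurons and 13.8, 15.3, 17.4, 17.7 and 16.1 CPM in P0 neurons. In non-neurons it had 0.558, 0, 0.247, 0.278 and 0 CPM at P21 and 4.28, 2.25, 2.86, 0.772 and 1.98 CPM at P0. The P0 neuronal libraries were the high ones by a wide margin, and the P21 libraries of both cell types held a few reads or none. The P21 to P0 ratio was 0.00698 in neurons and 0.0883 in non-neurons. The next, chr17:29143816-29144353, had 1.09 ± 0.363 CPM in P21 neurons and 9.38 ± 1.48 in P0 neurons, and 0.873 ± 0.272 CPM in P21 non-neurons and 9.97 ± 6.35 in P0 non-neurons, where replicate 1 at 21.1 CPM stood apart from the others at 6.02 to 9.14. The interval chr19:47253940-47254519 had 0.310 ± 0.236 CPM in P21 neurons and 8.01 ± 1.5 in P0 neurons, and 2.41 ± 0.806 CPM in P21 non-neurons and 18.4 ± 2.09 in P0 non-neurons. It kept more reads in non-neurons at both ages.

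The other 5 of the deepest losses were similar in size. The interval chr11:120410331-120410638 had ratios of 0.0334 in neurons and 0.113 in non-neurons, with 0.426 ± 0.424 CPM in P21 neurons and 11.8 ± 1.31 in P0 neurons. The interval chr17:35068377-35069066 had ratios of 0.0509 and 0.115 in neurons and non-neurons, and chr16:18234448-18235086 had 0.0467 and 0.131. At chr5:116082524-116082981 they were 0.0945 and 0.135, with 2.17 ± 0.445 CPM in P21 neurons and 21.1 ± 1.7 in P0 neurons. The loss was deeper in non-neurons at chr14:65271552-65272142, with a ratio of 0.140 in neurons and 0.0904 in non-neurons. All 8 intervals were 307 to 689 bp long.

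At the other extreme stood intervals among the most strongly covered ones at birth. The highest, chr17:25519396-25520267 on chromosome 17, had 303, 251, 186, 157 and 330 CPM in P21 neurons and 626, 720, 722, 588 and 643 CPM in P0 neurons. Its values were 374, 309, 190, 186 and 293 CPM in P21 non-neurons and 744, 789, 794, 714 and 701 CPM in P0 non-neurons. Every P21 library lay below every P0 library, and the P21 libraries of both cell types varied widely, with replicates 3 and 4 lowest. The ratio was 0.342 in neurons and 0.353 in non-neurons. Less variable was chr5:125522307-125523186, at 275.5 ± 17.5 CPM in P21 neurons and 656.7 ± 38 in P0 neurons, and 264.3 ± 18.7 CPM in P21 non-neurons and 627.9 ± 27.7 in P0 non-neurons. At chr9:121672281-121672920 non-neurons lost more, with a ratio of 0.397 in neurons and 0.263 in non-neurons. The other 3 of the 6 highest, chr17:26100362-26101180, chr17:26083900-26084592 and chr9:118983246-118983945, had ratios of 0.387 to 0.403 in neurons and 0.444 to 0.472 in non-neurons. Loss to near 0 was not seen in this range: among the 77 intervals with a relative level of 5 or more at P0, the lowest ratio was 0.227 in neurons and 0.145 in non-neurons.

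Interval length went with both the level and the loss. Of the 77 intervals of the set with a relative P0 level of 5 or more, 72 (93.5%) were 400 to 1000 bp long, against 83.7% of the 2190 kept intervals at that level. Over all 27259 intervals, the share that fell to 0.5 or less in both cell types was 7.95% at 400 to 600 bp, 7.72% at 600 to 800 bp and 8.22% at 800 to 1000 bp. It was 2.60% at 200 to 400 bp and 3.09% at 1200 to 1600 bp, and it came to 5.92% at 2500 to 3000 bp. The median ratio of all intervals was lowest at 600 to 800 bp, with 0.733 in neurons and 0.755 in non-neurons. It did not follow the share throughout: at 2000 to 2500 bp the share was 5.0% and the median ratios were 1.19 in neurons and 1.16 in non-neurons. After each library was corrected for its trend with length, 1429 intervals met the rule, and 1013 of these were among the 1336 (75.8% of the 1336 and 70.9% of the 1429). Whether length, PCR or library preparation accounts for part of the loss was not tested, and preparation and age cannot be told apart.

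**Figure D3:**
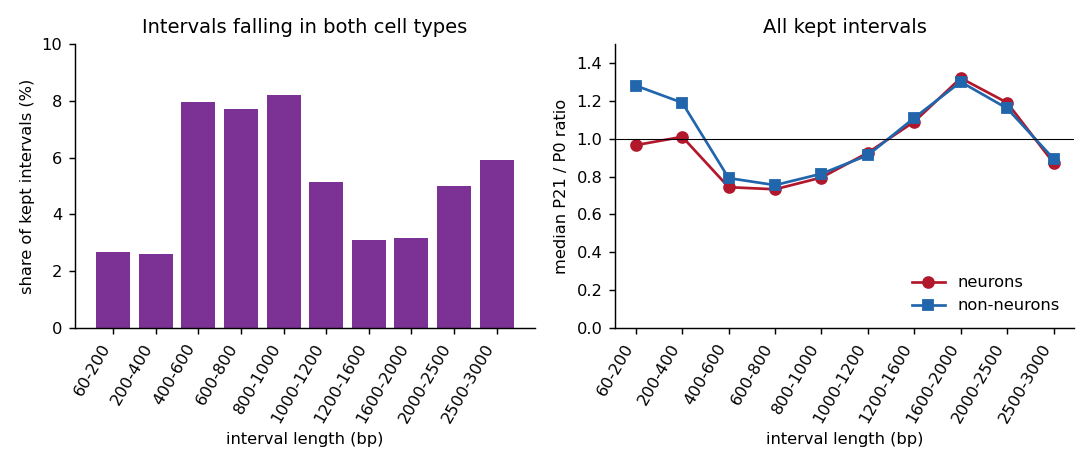
Left: share of kept intervals that fell to 0.5 or less in both cell types, by interval length. Right: median P21 to P0 ratio of all kept intervals in the same length classes; the share is highest (8.22%) at 800 to 1000 bp and the median ratios are lowest at 600 to 800 bp.

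Neurons and non-neurons were next compared within each age, with edgeR's quasi-likelihood test over 26679 intervals and Benjamini-Hochberg adjustment. The choice did not compare the cell types, but it capped both age ratios of the same 4 group means. Intervals that rose in neurons by P21 could not enter, so the P21 shares are descriptions beside those of all tested intervals. The filter of that fit left 1310 of the 1336 intervals. At P0, 95 of the 1310 (7.25%) were higher in neurons, against 6.92% of all tested intervals, and 49 (3.74%) were lower, against 2.86%. At P21, 178 (13.6%) were higher in neurons, against 20.8% of all tested intervals, and 223 (17.0%) were lower, against 15.0%. With a difference of at least 2-fold, 34 were higher and 22 lower in neurons at P0 (1.68% and 1.09% of all tested intervals), and 104 were higher and 121 lower at P21 (9.99% and 3.31%). The balance of directions depended on the scaling, and so did the comparison with all tested intervals. At P21, 334 of the 1310 were lower in neurons with median scaling and 262 with library totals alone. As shares of the 1310, both lay below those of all tested intervals (31.3% and 21.7%), unlike the share with TMM. Of the called intervals 66.0% were higher in neurons at P0 and 44.4% at P21 with TMM, 51.4% and 29.4% with the median scaling that chose the intervals, and 55.7% and 37.3% with the length trend removed. With P0 replicates 1 to 3 only, 60 were higher in neurons at P0 (4.49% of all tested intervals were) and 34 lower (1.91%). With replicates 4 and 5 only, 44 were higher (2.51% of all) and 9 lower (0.941%).

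The 95 with more reads in P0 neurons split at P21 into 77 again higher, 1 lower and 17 not called. The share again higher was 81.1% in the set and 85.9% over all 1847 intervals called higher at P0. The 49 with fewer reads in P0 neurons split into 43 again lower and 6 not called. The share again lower was 87.8% in the set and 49.7% over all 763 intervals called lower at P0. The choice left out intervals that rose or held in neurons, so nothing is read from this difference, which was not tested. Another 101 were higher and 179 lower in neurons at P21 alone. These 2 contrasts share no library, but the choice ties them through both age changes. With a relative P0 level of 5 or more, 18 of 77 (23.4%) were higher in neurons at P0 and 37 (48.1%) at P21, against 10.9% and 22.9% of the 2190 tested intervals in that range. With a level of 1 to 5, 32 of 133 (24.1%) were higher in neurons at P0 and 45 (33.8%) at P21, against 14.5% and 28.6% of 5397. With a level of 0.2 to 1, 29 of 484 (5.99%) were higher at P0 and 52 (10.7%) at P21, against 7.31% and 22.1% of 8101. Under 0.2 it was 16 of 616 (2.6%) and 44 (7.14%), against 2.13% and 15.6% of 10991. Lower in neurons at P21 were 14.3%, 21.1%, 23.3% and 11.5% from the highest range to the lowest. Of all tested intervals there, 25.7%, 17.6%, 15.6% and 11.2% were.

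**Figure D4:**
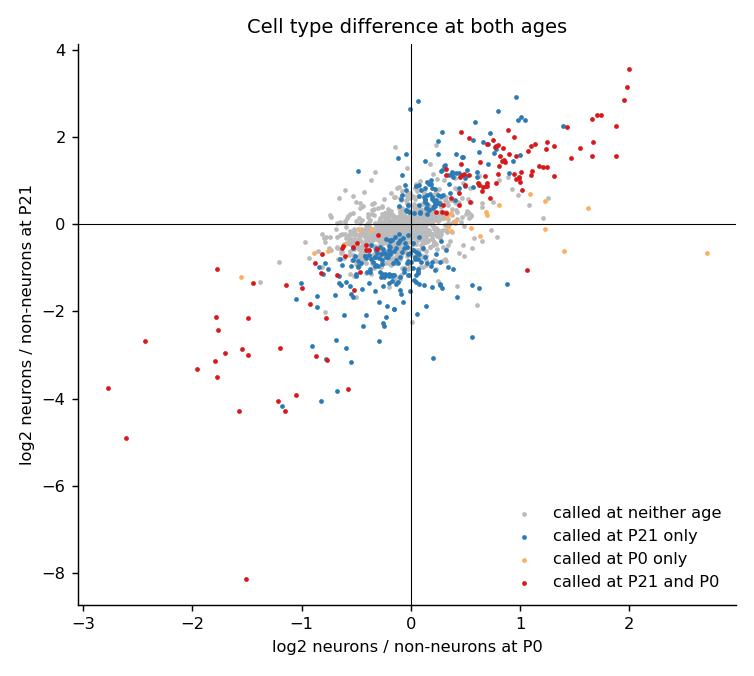
log2 fold change of neurons over non-neurons at P0 (x axis) and P21 (y axis) for the 1310 tested intervals, coloured by the age at which edgeR called them. Of the intervals called at both ages, 77 lie upper right and 43 lower left; the point at the bottom had no read in P21 neurons, so its fitted value is no measure of size.

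The interval chr2:145686358-145686713 had 12.7 ± 0.878 CPM in P21 neurons against 1.04 ± 0.749 CPM in P21 non-neurons (a log2 difference of 3.54 with SE 0.31 and an adjusted p of 3.78e-11 by edgeR), and 25.9 ± 2.49 CPM in P0 neurons against 6.53 ± 3.49 CPM in P0 non-neurons (a log2 difference of 2.00 with SE 0.24 and an adjusted p of 1.48e-07 by edgeR). At higher coverage, chr5:122259899-122261329 had 23.9, 37.6, 23.9, 23.7 and 30.3 CPM in P21 neurons and 3.21, 4.63, 2.84, 3.61 and 5.05 CPM in P21 non-neurons. At P0 it had 55, 66.6, 51, 59.2 and 43.8 CPM in neurons and 15.7, 18, 12.8, 11.4 and 13.5 CPM in non-neurons. The 4 groups did not overlap; the lowest P0 neuronal library had 43.8 CPM and the highest P21 neuronal one 37.6 CPM. The intervals chr14:26586835-26588619 and chr7:29332196-29332571 were also higher in neurons at P21, at 1.74 ± 0.482 against 0.176 ± 0.165 CPM in non-neurons and at 4.88 ± 1.57 against 0.850 ± 0.429 CPM. At P0, chr15:102454884-102455455 had the largest difference (a log2 difference of 2.71 with SE 0.29 and an adjusted p of 8.29e-10 by edgeR); at P21, with both cell types near 0, the adjusted p was 0.566 by edgeR. The interval chr5:141137835-141139353 was higher in neurons at P0, at 17.8 ± 1.92 CPM against 4.76 ± 1.8 in non-neurons.

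The named intervals lower in neurons at P0 had few reads there, and an interval can enter the set through its reads in non-neurons alone. No neuronal library reached 10 reads at 6 of the 49 intervals called lower in neurons at P0 and at 5 of the 223 at P21; chr18:38374334-38376404, with 2 to 9 reads per library in P0 neurons and 28 to 59 in P0 non-neurons, was one of them. A neighbouring pair on chromosome 18 sharing the site at 38374334 was lower in neurons at P0. There chr18:38372127-38374334 had 0.883 ± 0.681 CPM in P0 neurons against 4.85 ± 0.814 CPM in P0 non-neurons (a log2 difference of -2.43 with SE 0.42 and an adjusted p of 3.59e-05 by edgeR). The second of the pair, chr18:38374334-38376404, had 0.982 ± 0.505 CPM in P0 neurons against 6.07 ± 1.74 CPM in P0 non-neurons. At P21 it had 3 reads over all neuronal libraries and 92 over the non-neuronal ones, a ratio of non-neurons to neurons of 37.8 (95% interval 12.5 to 187, counting error only). Also lower in P0 neurons were chrX:100380810-100381566 (1.11 ± 0.518 against 7.69 ± 2.09 CPM in non-neurons), chr13:55587659-55588876 (2.32 ± 0.736 against 9.10 ± 2.87) and chr10:80488202-80488532 (1.12 ± 0.329 against 3.88 ± 1.23). At chr10:80488202-80488532 too, no neuronal library reached 10 reads, so it entered the set through non-neurons alone.

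At P21 the clearest case was chr7:25789849-25790652 on chromosome 7, with no read in any of the 5 libraries of P21 neurons and 6.42, 4.63, 5.56, 3.33 and 3.88 CPM in P21 non-neurons. At P0 it had 4.84, 4.95, 5.45, 4.29 and 6.07 CPM in neurons and 18.5, 17, 12.7, 10.8 and 14 CPM in non-neurons. Set against 3 reads over the whole group, its level was at least 74.4-fold lower in P21 neurons than in P21 non-neurons and at least 80.4-fold lower than in P0 neurons. The difference between the cell types was already called at P0 (a log2 difference of -1.51 with SE 0.21 and an adjusted p of 7.86e-07 by edgeR). Lower in P21 neurons as well were chr15:79921985-79922842, at 0.0909 ± 0.104 against 1.99 ± 0.807 CPM in non-neurons, and chr8:124175349-124175664, at 0.126 ± 0.13 against 2.39 ± 1.01 CPM. The interval chr9:59528073-59528537 had 2 reads over P21 neurons and 44 over P21 non-neurons, a ratio of non-neurons to neurons of 27.1 (95% interval 7.08 to 231, counting error only).

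The size of the loss itself differed between the cell types at a minority of the intervals. The interaction of cell type and age, which is built from both contrasts that chose the set and is therefore a description, was called at 50 intervals towards less loss in neurons (10.9% of all tested intervals in that direction) and at 77 towards more loss in neurons (3.24%). At least 2-fold were 19 and 57 of them (6.19% and 1.21% of all). Among strongly covered intervals, chr2:166455562-166456511 on chromosome 2 had 129, 118, 123, 141 and 123 CPM in P21 neurons and 292, 273, 229, 264 and 283 CPM in P0 neurons. It had 33.1, 23, 34.5, 25.4 and 29.6 CPM in P21 non-neurons and 164, 196, 180, 225 and 210 CPM in P0 non-neurons. Groups of different age did not overlap in either cell type, and the ratio was 0.434 in neurons and 0.145 in non-neurons. At chr5:125079607-125080509 the cell types were not called different at P0 (adjusted p of 0.927 by edgeR), with 8.89 ± 1.86 CPM in P0 neurons against 8.53 ± 2.73 CPM in P0 non-neurons, and they differed at P21, with 1.79 ± 0.485 CPM in P21 neurons against 0.240 ± 0.121 CPM in P21 non-neurons (a log2 difference of 2.83 with SE 0.43 and an adjusted p of 6.43e-07 by edgeR). Less loss in neurons was also measured at chr7:150239545-150240389, with ratios of 0.230 in neurons and 0.0640 in non-neurons, as well as at chr10:82624833-82627203, with 0.460 and 0.152. Their interaction calls were weak: the call was lost in 15 and 11 of the 20 fits that left out 1 library. More loss in neurons was measured at chr2:30996214-30997016, at 0.122 ± 0.22 CPM in P21 neurons and 6.93 ± 1.47 in P0 neurons, and 1.03 ± 0.276 CPM in P21 non-neurons and 6.00 ± 0.946 in P0 non-neurons. The same held at chr8:119783018-119783249, where P21 neurons had 2 reads in all and P0 neurons 38.

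Neighbouring intervals share a CCCGGG site where one ends and the next begins, so methylation of that site enters both. Of the 1336 intervals 825 (61.8%) touched another listed interval, against 52.7% of all kept intervals, and 165 (12.4%) touched another of the 1336. These formed 75 pairs and 5 chains of 3. No matching value was computed for intervals outside the set, so clustering of the set is not read from this share. Of the 79 touching pairs in which both intervals were tested, both were called for cell type at P21 in 20, all in the same direction, and at P0 in 7, again all in the same direction. Over all 7206 touching tested pairs, 1591 of 1740 pairs called in both intervals at P21 (91.4%) and 340 of 343 at P0 (99.1%) had the same direction.

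The 4 chains with the highest P0 level are described next, and the loss at each of their intervals follows from the choice. On chromosome 4, chr4:125928860-125929784 had 60.7, 60.3, 57, 63.7 and 61 CPM in P21 neurons and 143, 165, 140, 123 and 128 CPM in P0 neurons. Its values in non-neurons were 14.8, 20.1, 17.9, 13.6 and 20.7 CPM at P21 and 75.4, 68.2, 61, 65 and 55.8 CPM at P0. Neurons were above non-neurons at each age without overlap, and both cell types lost reads. The middle interval, chr4:125929784-125931233, had 7.38 ± 0.832 CPM in P21 neurons and 16.8 ± 2.31 in P0 neurons, and 2.28 ± 0.349 CPM in P21 non-neurons and 7.97 ± 1.74 in P0 non-neurons. Both of these intervals were called higher in neurons at P0 and at P21 (edgeR adjusted p = 1.31e-17 and 2.66e-09 at P21), while the third, chr4:125931233-125933272, was called at neither age and held 2.87 ± 1.59 CPM in P0 neurons.

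On chromosome 5 the chain from 109980032 to 109985113 lost a similar fraction in all 3 intervals, with ratios of 0.145 to 0.158 in neurons and 0.166 to 0.210 in non-neurons. Its first interval, chr5:109980032-109982560, varied widely between P0 neuronal libraries, at 19.2, 10.5, 28.1, 40.3 and 36.8 CPM, against 3.93, 4.49, 3.99, 2.97 and 6.22 CPM in P21 neurons. On chromosome 15 the chain from 76061719 to 76063742 had ratios of 0.139 to 0.212 in neurons and 0.170 to 0.259 in non-neurons, and its last interval had 3.06 ± 0.715 CPM in P21 neurons and 17.9 ± 0.795 in P0 neurons. The chain on chromosome 11 from 98626917 to 98628656 was strongest in its middle, chr11:98627935-98628405, with 19.4 ± 3.13 CPM in P21 neurons and 66.5 ± 4.33 in P0 neurons, and 22.5 ± 0.484 CPM in P21 non-neurons and 77.6 ± 6.73 in P0 non-neurons.

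**Figure D5:**
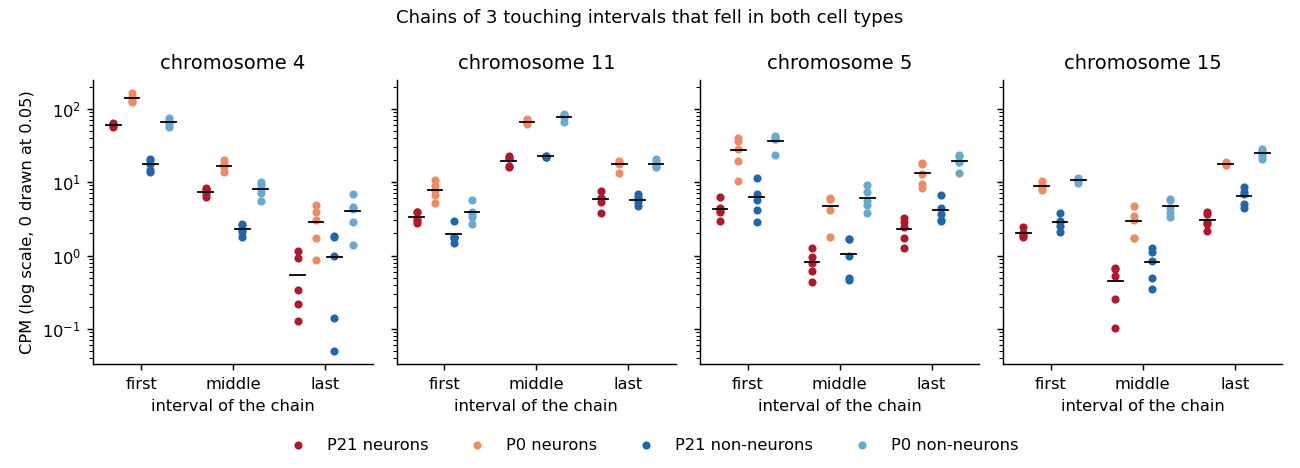
CPM (log axis, 0 drawn at 0.05) of the 3 touching intervals in each of 4 chains; points are the 5 libraries of a group and black lines are group means. In every panel P21 means lie below P0 means of the same cell type, which follows from the choice of the intervals. On chromosome 4 all neuronal points of the first and middle interval lie above the non-neuronal ones of the same age.

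The intervals next to the chosen ones were then tested for age, since their own reads did not choose the set beyond keeping them out of it. Some met the ratio limit in both cell types and stayed out only through too few reads. Of 851 listed neighbours that were not themselves in the set, 469 could be tested. In neurons 211 of them fell (45.0%) and 57 rose (12.2%) from P0 to P21, while 26.3% of all tested intervals fell and 31.0% rose. In non-neurons 207 fell (44.1%) and 41 rose (8.74%), against 25.8% and 28.5% of all. Both cell types fell at 153 (32.6%, against 18.4% of all tested intervals) and rose at 32 (6.82%, against 20.2%). Of the 12810 tested intervals that touch a listed interval but none of the set, 25.2% fell and 30.1% rose in neurons. The median log2 fold change with age was -0.34 in neurons and -0.35 in non-neurons for the 469, and 0.05 and 0.01 for the 12810. With the length trend removed, 53.3% of the 469 fell and 8.74% rose in neurons, against 28.1% and 27.0% of the 12810. With library totals alone as the scaling, 129 of the 469 (27.5%) fell and 70 (14.9%) rose in non-neurons, against 16.9% and 40.6% of all tested intervals.

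The neighbour with the deepest fall adjoins chr15:102454884-102455455. It is chr15:102455455-102455714, which had 1 read over all P21 neuronal libraries and 62 over the P0 neuronal ones, and 1 and 15 in non-neurons. The ratio of P0 to P21 was 95.3 in neurons (95% interval 16.5 to 3820) and 17.8 in non-neurons (2.73 to 748), counting error only. It had 9 to 15 reads per library in P0 neurons and at most 6 in any library of the other groups. It thus entered the fit through the group where it was high, and was picked for its fall. Its fall in both cell types is therefore a description with no test. Its reads were too few for the filter that chose the set. A similar neighbour, chr12:71446326-71446515, had 1.29 ± 0.749 CPM in P21 neurons and 8.44 ± 1.71 in P0 neurons, and a non-neuronal ratio of 0.501, just above the limit. Falls were also found at chr5:137504901-137506431, with 2 reads over P21 neurons and 49 over P0 neurons (its call in non-neurons was lost without P0 non-neuronal replicate 5), and at chr11:98628656-98630131, which extends the chromosome 11 chain, at 0.426 ± 0.272 CPM in P21 neurons and 1.46 ± 0.769 in P0 neurons. Both intervals had ratios under 0.5 in each cell type too, with too few reads for the filter that chose the set.

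A few neighbours rose although they share a site with an interval that lost reads. The interval chr6:118012552-118014337 had 7.85, 11, 8.4, 8.13 and 9.95 CPM in P21 neurons and 1.9, 1.35, 0.879, 2.06 and 1.52 CPM in P0 neurons (a log2 difference of 2.55 with SE 0.26 and an adjusted p of 9.78e-11 by edgeR). In non-neurons it had 7.60 ± 0.685 CPM at P21 and 1.89 ± 1.06 at P0. The adjoining chr6:118014337-118016338 had 2.80 ± 1.11 CPM in P21 neurons and 5.68 ± 1.80 in P0 neurons. Rises in both cell types were also called at chr13:65355409-65358133 (1.44 ± 0.378 CPM in P21 neurons and 0.263 ± 0.0931 in P0 neurons), chr6:72002642-72003623 (2.24 ± 0.754 and 0.607 ± 0.49) and chr4:128710950-128712474 (3.91 ± 1.08 and 0.749 ± 0.279). No P0 library reached 10 reads at any of these intervals, so they entered the fit through P21, where they were high. At chr4:128710950-128712474 non-neurons were near 0, with 0.543 ± 0.278 CPM at P21, 0.172 ± 0.248 at P0 and at most 7 reads in a library. This interval lost its call in non-neurons when P0 non-neuronal replicates 1, 3 or 4 or P21 non-neuronal replicates 2 or 5 were left out.

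The limit of 0.5 cuts through a continuous range of ratios. Just inside lay chr4:129316340-129317604, with ratios of 0.489 in neurons and 0.4998 in non-neurons, chr8:116160055-116162676, with 0.248 and 0.4996, and chr11:75273088-75275285, with 0.4996 and 0.425. Just outside lay chr3:127538876-127539472, with 0.378 and 0.5001, chr1:193764143-193766357, with 0.247 and 0.5001, and chr5:139727533-139727906, with 0.264 and 0.5004. The first of these 3 had 30.4 ± 1.99 CPM in P21 neurons and 73.6 ± 11 in P0 neurons, while chr1:193764143-193766357 had 1.25 ± 0.414 CPM in P0 neurons.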

How the data were processed

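Reads per SmaI/XmaI interval were deposited by the authors as raw counts: they are integers, and library totals differ. Per the submitters' processing notes, reads were handled with Bowtie 0.12.9, cutadapt and FastQC 0.10.1 on mm9; the counting step per interval was not given in the sources at hand. Each column was matched to its library by the age, cell type letter and number in its name. No genome or annotation of the mm9 build was used, so no gene or sequence is given and the gene lists planned for this case were not run.

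The intervals, lists and tests were chosen with earlier results of these data known. The rule's median scaling chose the set. Tests used edgeR 4.0.16 in R 4.3.3 on the counts (filterByExpr with a minimum count of 10, TMM, robust quasi-likelihood fit of 4 group means to 20 libraries, adjusted p under 0.05 over 26679 intervals). The standard error is the log2 fold change divided by the root of F. The functions were tested on simulated data. Named were the 8 deepest joint losses at above-median P0 level, the 6 highest at P0, the 5 largest cell type differences per age and direction without overlap, the 4 largest interactions per direction, 4 chains, 3 intervals on each side of the limit, and the 4 neighbours that fell most and the 4 that rose most. Same-numbered libraries were not paired by the labels. Alternatives were other scalings and filters, DESeq2 1.42.0, a length correction (lowess, span 0.2), a replicate block and leaving out libraries; subsets of P0 replicates were added after the data were seen. Libraries are described as biological replicates. PCR reads carry no molecular identifiers, so intervals cover counting error only.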

Additional observations from a re-analysis of the deposited data

Results flagged for a closer look

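For normally distributed values chance sets 1 library far from the others in about 1 in 20 groups, a rate that does not hold for counts near 0. In 23 of 244 groups of 5 libraries checked (9.43%), 1 library stood far from the other 4. It was the low one at these: 7.56 CPM in replicate 4 of P0 non-neurons at chr17:35068377-35069066 (14.3 to 15.5 in the others), 245 CPM in replicate 2 of P21 neurons at chr5:125522307-125523186 (277 to 289 in the others), 203 CPM in replicate 2 of P21 neurons at chr9:118983246-118983945 (268 to 282 in the others), 13.3 CPM in replicate 5 of P0 neurons at chr11:98628405-98628656 (17.8 to 19.2 in the others), 23.7 CPM in replicate 3 of P0 non-neurons at chr5:109980032-109982560 (38.2 to 42.3 in the others), 0.769 CPM in replicate 4 of P21 neurons at chr13:65355409-65358133 (1.58 to 1.65 in the others) and 0.153 CPM in replicate 1 of P0 non-neurons at chr6:72002642-72003623 (0.54 to 0.681 in the others). It was the high one at these: 21.1 CPM in replicate 1 of P0 non-neurons at chr17:29143816-29144353 (6.02 to 9.14 in the others), 11.3 CPM in replicate 1 of P0 non-neurons at chrX:100380810-100381566 (5.99 to 7.38 in the others), 9.11 CPM in replicate 4 of P0 non-neurons at chr18:38374334-38376404 (4.89 to 5.85 in the others), 2.95 CPM in replicate 2 of P21 non-neurons at chr11:98626917-98627935 (1.48 to 1.81 in the others), 38.1 CPM in replicate 1 of P0 non-neurons at chr5:139727533-139727906 (23.3 to 26.9 in the others), 11.4 CPM in replicate 5 of P0 neurons at chr12:71446326-71446515 (7.21 to 8.41 in the others) and 3.37 CPM in replicate 2 of P21 non-neurons at chr6:72002642-72003623 (1.48 to 1.95 in the others). Where the others were near 0, a few reads set it apart: 2.35 CPM in replicate 5 of P21 non-neurons at chr2:145686358-145686713 (0.556 to 0.976 in the others), 1.13 CPM in replicate 5 of P21 neurons at chrX:100380810-100381566 (0 to 0.176 in the others), 0.507 CPM in replicate 1 of P21 neurons at chr2:30996214-30997016 (0 to 0.102 in the others), 0.253 CPM in replicate 1 of P21 neurons at chr8:119783018-119783249 (0 in the others), 1.4 CPM in replicate 2 of P21 non-neurons at chr7:150239545-150240389 (0 to 0.278 in the others), 2.09 CPM in replicate 1 of P21 non-neurons at chr1:193764143-193766357 (0.352 to 0.742 in the others), 0.102 CPM in replicate 3 of P21 neurons at chr15:102455455-102455714 (0 in the others), 0.14 CPM in replicate 2 of P21 non-neurons at chr15:102455455-102455714 (0 in the others) and 0.226 CPM in replicate 5 of P21 neurons at chr5:137504901-137506431 (0 in the others).

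The age change differed between the cell types by the interaction test (edgeR adjusted p under 0.05) at 22 of the named intervals, 14 with more loss in neurons and 8 with less. Most of these intervals were chosen by both age changes, so the values are descriptions. With more loss in neurons, the interaction on the log2 scale was -3.36 at chr15:102454884-102455455, -1.67 at chr11:120410331-120410638, -1.65 at chr19:47253940-47254519, -1.34 at chr16:18234448-18235086, -2.29 at chr18:38374334-38376404, -6.64 at chr7:25789849-25790652, -2.72 at chr9:59528073-59528537, -3.13 at chr15:79921985-79922842, -2.84 at chr8:124175349-124175664, -3.27 at chr2:30996214-30997016, -3.23 at chr8:119783018-119783249, -0.83 at chr5:139727533-139727906, -3.25 at chr5:137504901-137506431 and -1.76 at chr12:71446326-71446515. The value is set by the prior count where P21 neurons had no read, at chr7:25789849-25790652. With less loss in neurons it was 0.68 at chr9:121672281-121672920, 1.55 at chr2:145686358-145686713, 0.90 at chr5:122259899-122261329, 2.77 at chr5:125079607-125080509, 1.96 at chr7:150239545-150240389, 1.70 at chr10:82624833-82627203, 1.66 at chr2:166455562-166456511 and 0.69 at chr4:125928860-125929784. The call was lost in 15 of 20 fits that left out 1 library at chr7:150239545-150240389, in 11 at chr10:82624833-82627203 and in 1 at chr15:102454884-102455455.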

How the results depend on the processing

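The number of intervals in the set was 1113 with TMM, 997 with at least 20 reads in 5 libraries, 1429 with the length trend removed and 1337 with group medians, but 641 with library totals alone and 5715 with no filter, which admits intervals with a few reads. Leaving out each library gave 1224 to 1484 intervals. The calls within the set kept within 1.5 times their number under RLE, median scaling, both other filters, the length correction and DESeq2. Intervals lower in neurons at P21 came close to that limit, with 334 under median scaling (31.3% of all tested) against 223 with TMM (15.0%). Beyond 1.5 times, intervals lower in neurons at P0 numbered 78 (3.8% of all tested) in a fit of the compared groups only. With P0 replicates 1 to 3 only, 60 intervals were higher in neurons at P0 (4.49% of all tested). With replicates 4 and 5 only, 44 were higher (2.51% of all) and 9 lower (0.941%), with interactions at 28 (6.51%) and 46 (1.15%); fewer libraries enter these fits, and the shares of all intervals fell too. With library totals alone, 70 neighbours rose (40.6% of all tested) and 129 fell (16.9%) in non-neurons. With the replicate block, 74 intervals were lower in neurons at P0 (49 without it; 4.16% of all tested) and no other count moved by over 1.5 times. Same-numbered neuronal and non-neuronal libraries deviated together at r = 0.05 to 0.21 at P0 and -0.01 to 0.32 at P21, over 0.1 in 3 and 2 of 5 pairs, so pairing was not taken as given. At P0 the 2 cell types deviated together within replicates 1 to 3 and within 4 and 5 (r = 0.02 to 0.22) and apart between them (-0.23 to -0.06), which is why those subsets were run. The negative values follow in part from taking deviations from group means. Of 108 named results, none changed direction in any alternative run; 10 lost their call in at least 1 alternative other than leaving out a library, and 7 on leaving one out. The causes of these moves were not tested. At P21, 404 intervals had under 10 reads per library on average in neurons and 450 in non-neurons, which limits how deep a loss can be measured.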

Other observations

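The intervals that lost methylation signal in both cell types were spread over all autosomes and the X chromosome. Their share of the kept intervals was highest on chromosome 7 (128 of 1918, 6.67%) and chromosome 17 (91 of 1418, 6.42%). It was lowest on the X chromosome (14 of 606, 2.31%), followed by chromosome 12 (33 of 1072, 3.08%) and chromosome 1 (48 of 1532, 3.13%). None of 13 kept intervals on the Y chromosome was in the set. Isolated intervals were less frequent in the set than among the kept ones: 32.5% had no other listed interval within 5 kb, against 43.3%. These shares are descriptions with no test.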
